A study of Mus musculus with 38 samples.

Results

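Polycomb complex genes were followed in 38 total RNA libraries of mouse embryonic stem cells. The genes were picked by symbol from the deposited count table: Ezh1, Ezh2, Eed, Suz12, Jarid2 and Mtf2 of Polycomb repressive complex 2 (PRC2), and Cbx2, Cbx7, Scmh1 and Scml2 of the PRC1 side of the system. All 10 listed genes have a row among the 55385 genes of the table, and 9 of the 10 had counts. Eed, the PRC2 subunit that reads trimethylated H3K27, is listed at 0 in every library, so nothing can be said of its expression.

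The cells came from the 129S6/SvEvTac strain. They grew on gelatin-coated plates with serum and LIF, the cytokine that keeps embryonic stem cells undifferentiated. Wild type cells received BRM014 at 10 uM, an inhibitor of BRG1 and BRM, the ATPases of the SWI/SNF chromatin remodellers, for 30 min, 1 h, 3 h, 6 h or 24 h. An inactive analog of the inhibitor at 10 uM and the vehicle DMSO were given for 1 h or 24 h. In washout groups BRM014 was removed after 1 h (collection 30 min or 1 h later) or after 24 h (collection 6 h or 24 h later). Cells labelled Ino80ko and cells labelled Snf2hko were given DMSO or BRM014 for 24 h, and these labels refer to INO80 and SNF2H, the motor proteins of other chromatin remodellers. The labels do not say how these lines were made or whether each is 1 clone. There are 17 groups. The labels place 26 libraries in a first experimental batch and 12 in a second, which holds both labelled lines and the wild type 24 h groups again. Each group has 2 libraries per batch. There was no vehicle group at 30 min, 3 h or 6 h and no washed vehicle group.

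Polycomb proteins keep developmental genes silent. PRC2 methylates histone H3 at lysine 27 through EZH2 or its weaker paralog EZH1, held together by SUZ12 and EED, and is guided to CpG-rich DNA by accessory subunits such as MTF2 (also called PCL2) and JARID2. Canonical PRC1 binds that mark through CBX proteins, of which CBX7 predominates in embryonic stem cells and CBX2 becomes more prominent as cells differentiate. SCMH1 and SCML2 belong to the SAM-domain proteins that associate with PRC1.

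Levels are CPM, counts scaled to 1000000 per library with TMM-adjusted library sizes. Changes are log2 fold changes ± standard error from edgeR's quasi-likelihood test, with p-values adjusted by Benjamini-Hochberg over all genes tested. Genes with an adjusted p under 0.05 are spoken of as called, and only these as having risen or fallen. Where groups are said not to overlap, the share of all genes doing the same was not counted. The first batch held 19.3 to 23.1 M counts per library and the second 21.9 to 44.5 M. The labels' protocols speak of biological replicates without naming cultures or days, so p-values measure only how far these samples spread, which may be technical. In bulk RNA, fewer cells of a type and less RNA per cell cannot be told apart.

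The labels could be checked only in part. Smarca5, which encodes SNF2H, and Smarca4, which encodes BRG1, are listed at 0 in every library. Ino80 was at 174 and 175 CPM in wild type DMSO of the second batch, 122 and 128 CPM in the line labelled Ino80ko (log2 change of -0.48 ± 0.07) and 125 and 130.0 CPM in the line labelled Snf2hko (-0.46 ± 0.07). Its level therefore does not tell the lines apart. Smarca2, which encodes BRM, fell in the Ino80ko line (-1.32 ± 0.12) and rose in the Snf2hko line (2.07 ± 0.10). All 4 Snf2hko libraries also stood apart in the Y-linked genes Uty and Eif2s3y, a pair chosen after their values were seen. Uty was at 0.473 to 0.792 CPM in them against 48.9 to 64.3 CPM in the other libraries of the second batch. The 11 embryonic stem cell markers with counts summed to 6290 to 8938 CPM over all groups, while Sox2 is listed at 0. In Snf2hko under DMSO 6 fell and 1 rose (56.5% of all genes called), with sums of 6549 and 6868 CPM against 7427 and 7878 CPM in wild type. At 6 h of BRM014 5 fell and 2 rose (48.4% called), with sums of 6290 and 6315 CPM. At 24 h of BRM014, over both batches, 4 rose and 2 fell (49.6% called). The sums were then 8262 and 8395 CPM against 7617 and 7625 CPM in DMSO 24 h of the first batch. In the second batch they were 8373 and 8510 CPM against 7427 and 7878 CPM. With the analog at 24 h they were 8322 and 8451 CPM. Between 6 h and 24 h of BRM014 7 rose and 0 fell (41.6% called). Their part in the values of the Polycomb genes was not tested.

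On GRCm38 (GENCODE), Ezh1 lies at chr11:101191115-101226463, Ezh2 at chr6:47530139-47595341, Eed at chr7:89954654-89980983, Suz12 at chr11:79993106-80034123, Jarid2 at chr13:44729474-44921643 and Mtf2 at chr5:108065674-108109004. Cbx2 lies at chr11:119022962-119031270, Cbx7 at chr15:79915807-79971119, Scmh1 at chr4:120405281-120530186 and Scml2 at chrX:161117193-161258213. All are protein-coding genes, and counts cover their exons. On the opposite strand, Ezh2 shares 174 exonic bases and Suz12 178 with a long noncoding RNA gene each, Cbx7 shares 100 with Apobec3, which is listed at 0, and Eed shares 261 with E230029C05Rik, also at 0.

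Compared per kilobase of exon, the levels of the members in the 6 wild type vehicle libraries covered a wide range. Mtf2 (median 119 CPM per kb, 118 to 138) and Jarid2 (107, 92.7 to 109.7) came highest. Suz12 followed (67.3, 64.1 to 77.3), then Cbx7 (45.5, 40.8 to 46.2), Ezh2 (31.9, 30.3 to 37.6), Cbx2 (9.82, 8.68 to 11.7) and Ezh1 (5.61, 5.37 to 6.83). Scml2 (1.505, 1.33 to 1.85) and Scmh1 (1.116, 0.762 to 1.49) came last. Neighbours in this order kept separate ranges except for Scml2 and Scmh1, whose ranges overlapped. On this measure, the accessory subunits Mtf2 and Jarid2 stood above the catalytic subunit Ezh2, and Ezh2 above Ezh1. The length used is the exonic bases listed for each gene, not that of the transcript made in these cells. The order between genes therefore depends on the annotation.

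Ezh2 and Ezh1 encode the alternative catalytic subunits of PRC2 and moved differently below, and Suz12 encodes the scaffold that both need. The stretch just upstream of each RefSeq start site is therefore shown first. The 120 bases before the RefSeq start are given on the gene's own strand (GRCm38.p6), with capitals marking exact matches, on either strand, to the CCAAT box (CCAAT) or the GC box (GGGCGG).
Ezh2, chr6:47595031-47595150, minus strand: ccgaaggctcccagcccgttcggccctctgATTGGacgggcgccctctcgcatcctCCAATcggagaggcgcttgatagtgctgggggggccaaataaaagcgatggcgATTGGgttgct
Ezh1, chr11:101226464-101226583, minus strand: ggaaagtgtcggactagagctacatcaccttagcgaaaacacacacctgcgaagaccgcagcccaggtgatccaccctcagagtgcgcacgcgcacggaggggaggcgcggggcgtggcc
Suz12, chr11:79992986-79993105, plus strand: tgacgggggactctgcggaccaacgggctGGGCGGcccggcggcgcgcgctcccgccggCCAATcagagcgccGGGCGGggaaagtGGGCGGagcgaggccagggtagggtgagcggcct
In the 250 bases before the start, Ezh2 holds 3 CCAAT boxes, Suz12 holds 1 CCAAT box and 3 GC boxes, and Ezh1 holds neither motif. Among 32851 RefSeq promoters, 33.8% hold a CCAAT box and 32.7% a GC box in the same window. No match shown overlaps another. None of these stretches, searched over the same window, holds an E2F (TTCCCGCC or TTTGGCGC), ETS (CCGGAAGT), octamer (ATGCAAAT) or E-box (CACGTG) motif, which 2.25%, 2.88%, 1.6% and 6.02% of promoters hold. The Ezh2 stretch lies inside the gene as GENCODE places it (minus strand, starting at 47595341), so it is upstream of the RefSeq start only. The stretches of Ezh1 and Suz12 lie directly before the GENCODE start too. A match describes the letters only.

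At 24 h of BRM014, most of the measured Polycomb genes were higher than in vehicle when both batches were fitted together, with modest fold changes, while directions were mixed in the second batch alone. Over both batches (4 libraries a group, batch as a term), 6 of 9 members rose and 1 fell. Of all 11787 genes tested 49.6% were called, 24.8% higher and 24.8% lower. The total of 7 members called is 6 with DESeq2. The members were chosen with earlier results of these data known, so their share is no test against this background. The median change of the members was 0.21 against 0.00 for all genes.

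Among the PRC2 catalytic subunits, Ezh1 rose and Ezh2 did not pass the test. In the first batch Ezh1 stood at 41.4 and 40.0 CPM in DMSO and at 54.1 and 51.3 CPM in BRM014. In the second batch it was 50.8 and 47.5 CPM in DMSO and 59.2 and 68.1 CPM in BRM014. The groups did not overlap in either batch, and the change was 0.37 ± 0.07 (adjusted p = 0.00031). Ezh2 was at 205 and 217 CPM in DMSO and 234 and 239 CPM in BRM014 in the first batch, all treated libraries being higher. In the second batch it was at 240.2 and 251 CPM in DMSO and 191 and 206 CPM in BRM014, all treated libraries being lower. The pooled change of Ezh2 was -0.07 ± 0.08, and its effect differed between batches by -0.46 ± 0.11 (second minus first, adjusted p = 0.021). No other member's batch difference was called in this fit, beside 3.46% of all genes, and that of Jarid2 lay close to the threshold. That call is lost without BRM014 replicate 1, 2, 3 or 4 or without DMSO replicate 4 (adjusted p up to 0.156).

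Suz12, the scaffold, stood at 317 and 360.4 CPM in DMSO and 404 and 383 CPM in BRM014 in the first batch. In the second it was 329 and 382 CPM against 371 and 399 CPM, where the groups overlapped. Its pooled change of 0.17 ± 0.07 (adjusted p = 0.045) was just inside the threshold. It falls outside with RLE factors (adjusted p = 0.054), with DESeq2 (0.063), and without BRM014 replicate 1, 2 or 4 or DMSO replicate 1 or 3 (up to 0.164).

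The accessory subunits of PRC2 rose as well, Mtf2 in both batches. Mtf2 was at 676 and 716 CPM in DMSO and 912 and 884 CPM in BRM014 in the first batch, and at 680.3 and 787 CPM against 1023 and 992 CPM in the second. Every treated library lay above every vehicle library, with a change of 0.41 ± 0.06 (adjusted p = 3.26e-05). Mtf2 shares 395 exonic bases with Tmed5 on the opposite strand, and the strand setting of the counting is not given in the sources used here, so its values are uncertain to that extent. Jarid2 was at 901 and 1009 CPM in DMSO and 1248 and 1284 CPM in BRM014 in the first batch. In the second batch the groups overlapped, at 1066 and 1046 CPM in DMSO and 1078 and 1051 CPM in BRM014. Its pooled change of 0.21 ± 0.07 was called (adjusted p = 0.026). The call is lost without either BRM014 or either DMSO library of the first batch (adjusted p up to 0.092). Within batches, the change was 0.40 ± 0.06 (adjusted p = 1.04e-06) in the first and 0.01 ± 0.06 (adjusted p = 0.93) in the second. The difference between batches was -0.38 ± 0.11 (adjusted p = 0.053). It is called with the replicate block (0.022), with DESeq2 (0.024), without the low-count filter (0.031) and without DMSO replicate 2 (-0.46, 0.0039).

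On the PRC1 side Cbx7 rose, while its paralog Cbx2 was not called over both batches. Cbx7 was at 299 and 265 CPM in DMSO and 375 and 420.3 CPM in BRM014 in the first batch, and at 296 and 292 CPM against 349 and 376 CPM in the second. The groups did not overlap, and Cbx7 rose by 0.40 ± 0.07 (adjusted p = 9.23e-05). Cbx2 was at 40.2 and 43.4 CPM in DMSO and 38.3 and 40.9 CPM in BRM014 in the first batch, and at 49.96 and 46.7 CPM against 43.3 and 38.3 CPM in the second. Its pooled change of -0.16 ± 0.07 did not pass the test (adjusted p = 0.085), while it fell in the second batch alone by 0.24 ± 0.08 (adjusted p = 0.026). That last call is lost without DMSO replicate 3 or BRM014 replicate 4 (up to 0.305), and the pooled change is called without DMSO replicate 1 (-0.20, 0.0496).

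The SAM-domain genes Scml2 and Scmh1, the members with the fewest counts, had the largest changes and opposite ones. Scml2 was at 11.2 and 11.8 CPM in DMSO and 18.0 and 19.8 CPM in BRM014 in the first batch, and at 8.51 and 9.76 CPM against 16.2 and 15.0 CPM in the second. It rose by 0.75 ± 0.10 (adjusted p = 9.65e-06) with no overlap of groups. Scmh1 was at 7.71 and 9.55 CPM in DMSO and 7.52 and 7.62 CPM in BRM014 in the first batch, and at 9.86 and 11.5 CPM against 5.81 and 6.33 CPM in the second. It fell by 0.52 ± 0.14 (adjusted p = 0.006). The change was -0.83 ± 0.16 in the second batch and -0.19 ± 0.15 in the first, and the difference between batches was not called (-0.62 ± 0.23, adjusted p = 0.156).

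Within the batches, 6 members rose and 0 fell in the first (45.8% of all genes called), with a median of 0.37. In the second, 4 rose and 3 fell, the latter being Ezh2, Cbx2 and Scmh1 (42.3% of all genes called), with a median of 0.11. Ezh1, Mtf2, Cbx7 and Scml2 rose in both. Within the first batch the call of Suz12 is lost without BRM014 replicate 1 or DMSO replicate 1, and within the second that of Ezh2 without DMSO replicate 4 or BRM014 replicate 3.

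**Figure D1:**
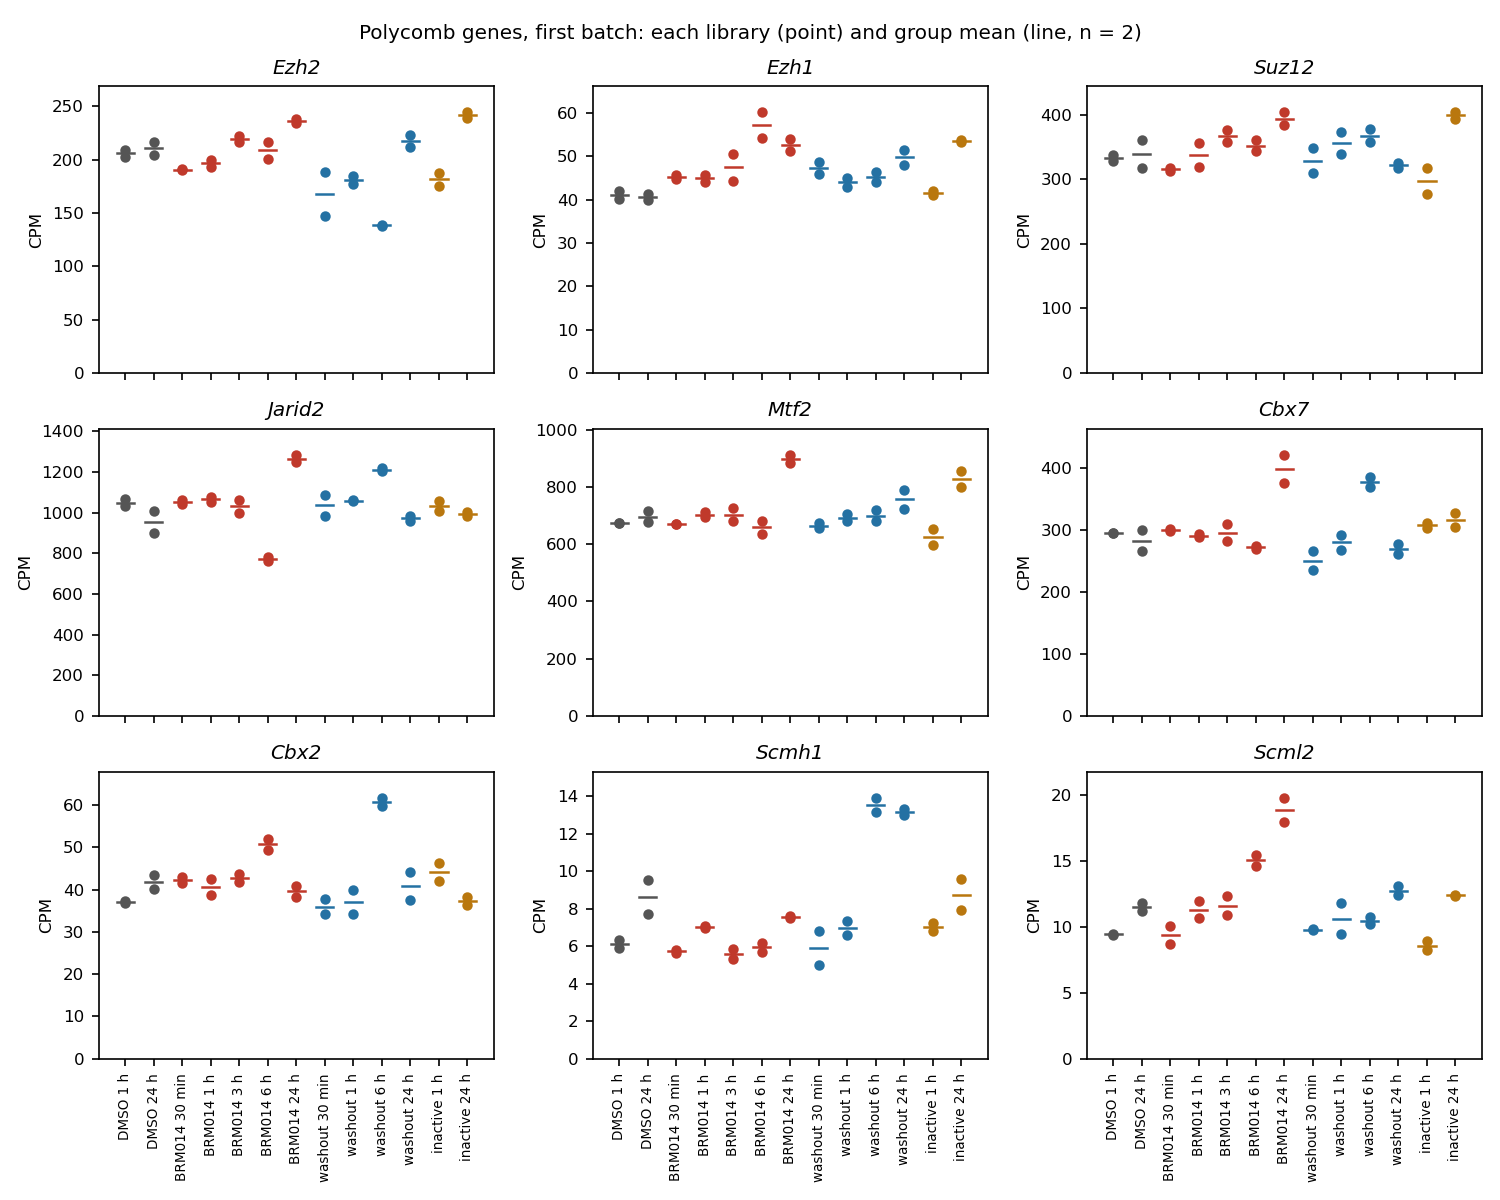
Level of each of the 9 measured Polycomb genes in the 26 libraries of the first batch. The y axis is CPM from 0, points are libraries and lines group means (n = 2), in grey for DMSO, red for BRM014, blue for washout and brown for the inactive analog. Scml2 is highest at 24 h of BRM014 (18.0 and 19.8 CPM), Jarid2 is lowest at 6 h (784 and 764 CPM), and Ezh2 is lowest and Cbx2 highest at 6 h of washout.

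The time course in the first batch asks when these transcripts begin to change. No member was called at 30 min against DMSO 1 h (edgeR, 0 of 9, 1 at an unadjusted p under 0.05, 0 with DESeq2), where 0% of all genes were called. At 1 h there was again none (0 of 9, 1 at an unadjusted p under 0.05, 0 with DESeq2), beside 0.599% of all genes. At 3 h, set against the mean of both vehicle groups, Ezh1 rose by 0.22 ± 0.07 (adjusted p = 0.013) and Scmh1 fell by 0.37 ± 0.13 (adjusted p = 0.035), beside 31.2% of all genes called. Both calls are lost without BRM014 3 h replicate 1 (Ezh1 0.12, adjusted p = 0.356, and Scmh1 -0.31, adjusted p = 0.231) and with DMSO 1 h alone as the vehicle (0.056 and 0.601). The call of Scmh1 is also lost without BRM014 3 h replicate 2, DMSO 1 h replicate 1 or DMSO 24 h replicate 2. Scmh1 itself differed between the vehicle groups, at 6.31 and 5.89 CPM after 1 h and 7.71 and 9.55 CPM after 24 h of DMSO (0.49 ± 0.15, adjusted p = 0.02). That was the 1 member of 9 called between vehicles, where 18.5% of all genes were called. The call is lost without DMSO 1 h replicate 1 or 2 or DMSO 24 h replicate 2 (adjusted p up to 0.255).

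At 6 h 3 members rose and 1 fell, beside 48.4% of all genes called (24.9% higher and 23.5% lower). Ezh1 reached 54.2 and 60.2 CPM (0.51 ± 0.06, adjusted p = 2.12e-07) and Scml2 15.5 and 14.63 CPM (0.55 ± 0.10, adjusted p = 3.36e-05). Cbx2 stood at 49.5 and 51.9 CPM, above all 4 vehicle libraries of the batch (37.0 to 43.4 CPM), with a change of 0.39 ± 0.07 (adjusted p = 8.98e-05). Jarid2 was lowest here, at 784 and 764 CPM against 901 to 1066 CPM in the vehicle libraries, and fell by 0.35 ± 0.05 (adjusted p = 1.41e-06). Cbx7 and Mtf2, which rose at 24 h, had changes of -0.07 ± 0.06 and -0.03 ± 0.05 at 6 h.

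Several members turned between 6 h and 24 h of BRM014. Of the 9, 4 were higher at 24 h than at 6 h and 1 was lower, beside 41.6% of all genes called. Jarid2 rose by 0.68 ± 0.06 (adjusted p = 1.44e-10), from its lowest level to its highest of the first batch. Cbx7 rose by 0.52 ± 0.07 and Mtf2 by 0.42 ± 0.06, while Cbx2 fell by 0.39 ± 0.09 (adjusted p = 0.000715). Scml2 rose further by 0.30 ± 0.11, a call lost without BRM014 24 h replicate 2 or BRM014 6 h replicate 1 or 2 (adjusted p up to 0.218). Ezh1 had a change of -0.15 ± 0.08 and Ezh2 of 0.15 ± 0.08, neither of them called.

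**Figure D2:**
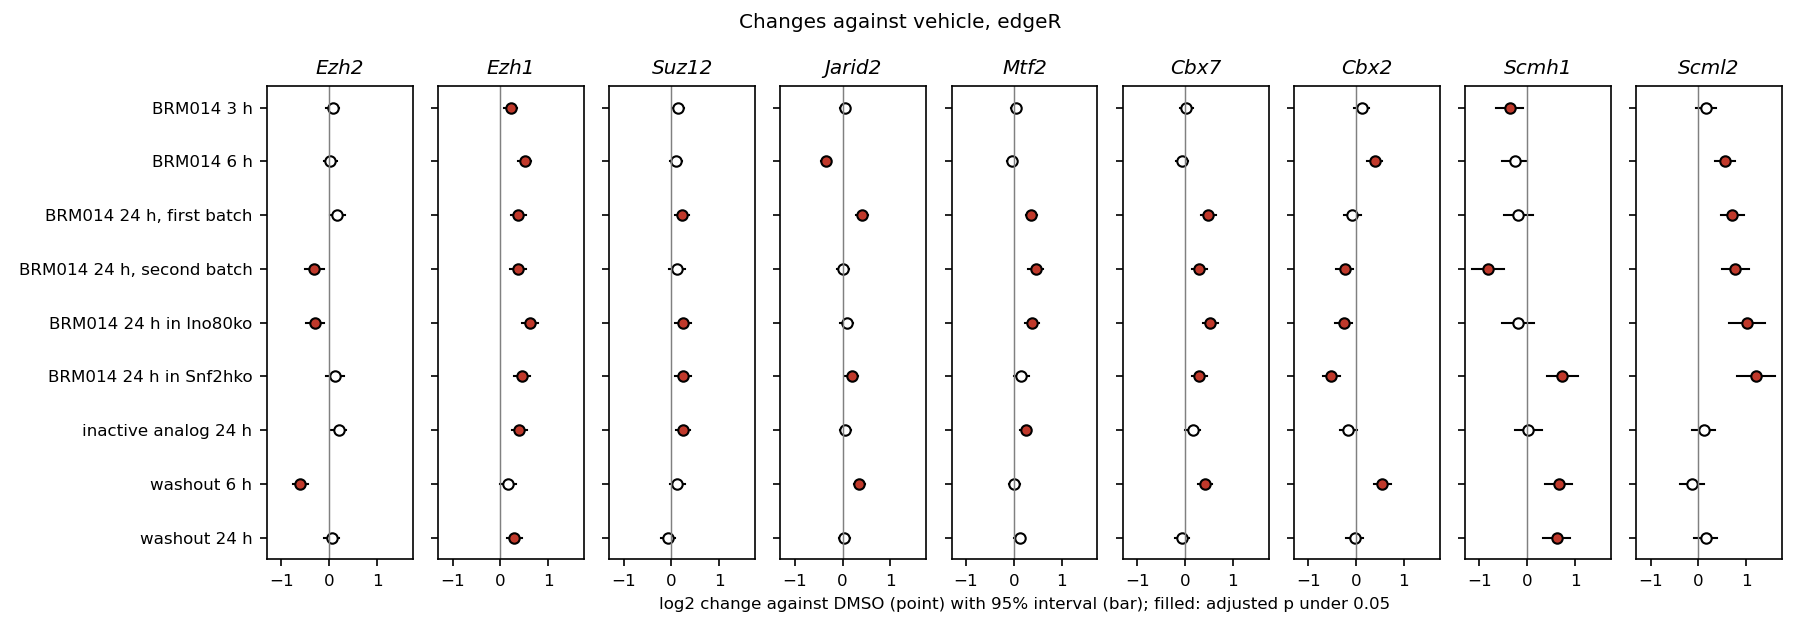
Log2 change against DMSO (x axis, points) with its 95% interval (bars) for each measured Polycomb gene in 9 comparisons (rows). Filled points have an adjusted p under 0.05, and BRM014 at 3 h and 6 h is set against the mean of DMSO at 1 h and 24 h. Scml2 is above 0 in every 24 h BRM014 row (0.71 to 1.21), Ezh2 is furthest below 0 at 6 h of washout (-0.60), and Scmh1 lies on both sides of 0.

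BRM014 and its inactive analog can be compared at 10 uM after 1 h and after 24 h, which makes 18 pairs over the 9 members, each adjusted over all genes of its comparison. At 1 h no member differed between the compounds (edgeR, 0 of 9, 3 at an unadjusted p under 0.05, 0 with DESeq2), beside 0.160% of all genes. None was called for the analog against DMSO at 1 h either (0 of 9, 3 at an unadjusted p under 0.05, 0 with DESeq2), beside 0.184% of all genes. At 24 h, 3 members were higher with BRM014 than with the analog, beside 35.4% of all genes. Scml2 was at 18.0 and 19.8 CPM with BRM014 and 12.47 and 12.4 CPM with the analog (0.60 ± 0.11, adjusted p = 9.61e-05). Jarid2 was at 1248 and 1284 CPM against 984 and 1001 CPM (0.35 ± 0.06, adjusted p = 1.62e-05). Cbx7 was at 375 and 420.3 CPM against 327 and 303 CPM (0.33 ± 0.07, adjusted p = 0.0005).

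The other 6 members were not called between the compounds at 24 h, and their intervals bound the difference without showing that the compounds act alike. The difference of Ezh1 was -0.02 (95% interval -0.18 to 0.13), that of Ezh2 -0.03 (-0.19 to 0.12) and that of Suz12 -0.02 (-0.17 to 0.13). It was 0.12 (-0.0044 to 0.23) for Mtf2, 0.08 (-0.10 to 0.27) for Cbx2 and -0.21 (-0.51 to 0.08) for Scmh1. Against DMSO the analog itself had 3 members called at 24 h, all higher, beside 18.4% of all genes. Ezh1 was at 53.8 and 53.3 CPM with the analog (0.40 ± 0.08, adjusted p = 0.00044). Mtf2 was at 801 and 855 CPM (0.25 ± 0.06, adjusted p = 0.0029) and Suz12 at 394 and 404 CPM (0.24 ± 0.07, adjusted p = 0.023). The call of Mtf2 is lost without analog replicate 2 (0.053), and that of Suz12 without either analog library or DMSO 24 h replicate 1 (up to 0.221). In the first batch, Ezh1, Mtf2 and Suz12 were thus called higher than DMSO at 24 h with both compounds. The rises of Scml2, Jarid2 and Cbx7 were larger with BRM014, and the second batch had no analog group. These comparisons with DMSO share the vehicle libraries. The endoderm markers moved with the analog too: 4 of 7 tested fell, and the list summed to 253.1 and 253.5 CPM with the analog against 368 and 471 CPM in DMSO 24 h, and their part in these values was not tested.

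Washout asks whether the levels return once the inhibitor is removed. After 1 h of BRM014, no member was called at 30 min of washout against BRM014 1 h (edgeR, 0 of 9, 3 at an unadjusted p under 0.05, 0 with DESeq2), beside 5.90% of all genes. Ezh2 stood at 189 and 148 CPM and Cbx7 at 265 and 234 CPM at that time. Both are called without washout 30 min replicate 1 (Ezh2 -0.44 and Cbx7 -0.33), which leaves the lower library alone. At 1 h of washout none was called (0 of 9, 0 at an unadjusted p under 0.05, 0 with DESeq2), beside 3.98% of all genes.

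After 24 h of BRM014, 6 h of washout gave some of the most extreme levels of the series. Against BRM014 24 h, 2 members were higher and 4 lower, beside 48.7% of all genes. Ezh2 dropped to 139 and 138 CPM, its lowest group mean, from 234 and 239 CPM (-0.77 ± 0.08, adjusted p = 2.20e-09). Scml2 dropped to 10.2 and 10.7 CPM (-0.85 ± 0.12, adjusted p = 5.77e-07) and Mtf2 to 679 and 721 CPM (-0.35 ± 0.06). Ezh1 fell by 0.21 ± 0.08, a call lost without BRM014 24 h replicate 1 or washout 6 h replicate 2 (adjusted p up to 0.147). Cbx2 rose to 61.7 and 59.8 CPM, above every other library of the series (0.62 ± 0.09, adjusted p = 8.02e-07), and Scmh1 to 13.2 and 13.9 CPM (0.84 ± 0.14, adjusted p = 1.04e-05). Jarid2 and Cbx7 had changes of -0.06 ± 0.06 and -0.07 ± 0.07, not called.

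At 6 h of washout the members had therefore not all returned to the vehicle level. Against DMSO 24 h, 4 were higher and 1 lower, beside 39.8% of all genes (20.8% higher and 19.0% lower). Cbx2 (0.55 ± 0.09), Cbx7 (0.42 ± 0.07), Jarid2 (0.35 ± 0.06) and Scmh1 (0.66 ± 0.14) were above vehicle. Ezh2 was below it (-0.60 ± 0.08, adjusted p = 3.60e-07). Scml2 (-0.13 ± 0.12) and Mtf2 (0.01 ± 0.06) were not called. Markers of other lineages moved at this time too. Against DMSO 24 h, 4 of 5 tested mesoderm markers rose, their list summing to 53.8 and 56.7 CPM against 9.93 and 10.3 CPM, and both tested neural markers rose, from a sum of 60.6 and 61.0 CPM to 136 and 144 CPM. At 24 h of washout the sums were 7.17 and 7.78 CPM for mesoderm and 54.6 and 54.7 CPM for neural markers. Their part in the values of the Polycomb genes was not tested.

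By 24 h of washout most members were near vehicle. Against DMSO 24 h, 2 were called, both higher, beside 17.4% of all genes. These were Scmh1, at 12.98 and 13.3 CPM (0.62 ± 0.14, adjusted p = 0.0019), and Ezh1, at 48.1 and 51.5 CPM (0.29 ± 0.08, adjusted p = 0.0079). The call of Ezh1 is lost without DMSO 24 h replicate 2 or washout 24 h replicate 2 (adjusted p up to 0.080). Between 6 h and 24 h of washout, Ezh2 rose by 0.65 ± 0.08 to 212 and 223 CPM, while Cbx2 fell by 0.57 ± 0.09, Cbx7 by 0.49 ± 0.07, Jarid2 by 0.32 ± 0.06 and Suz12 by 0.19 ± 0.07. The call of Suz12 is lost without any 1 of the 4 washout libraries compared (adjusted p up to 0.232). These are 5 of 9 members, beside 40.3% of all genes. Against BRM014 24 h, 6 of 9 members were called at 24 h of washout, beside 50.4% of all genes. Cbx7 (-0.56 ± 0.07), Scml2 (-0.56 ± 0.11), Jarid2 (-0.37 ± 0.06), Suz12 (-0.28 ± 0.07) and Mtf2 (-0.24 ± 0.06) were lower, and Scmh1 was higher (0.80 ± 0.14). There was no washed vehicle, so washing and time in culture cannot be told apart from removal of the inhibitor.

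The lines labelled Ino80ko and Snf2hko differed from wild type in opposite directions for several PRC2 genes and in the same direction for Scml2 and Scmh1. In the Ino80ko line under DMSO, 2 members were higher and 3 lower than in wild type, beside 45.0% of all genes called (22.1% higher and 22.9% lower). In the Snf2hko line 1 was higher and 5 lower, beside 56.5% (28.9% higher and 27.7% lower).

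Jarid2, which helps PRC2 to its target sites, was at 1066 and 1046 CPM in wild type, 1520.3 and 1496 CPM in the Ino80ko line and 744 and 767 CPM in the Snf2hko line. The changes were 0.52 ± 0.06 (adjusted p = 2.32e-06) and -0.49 ± 0.06 (adjusted p = 2.45e-06). Ezh2 was at 240.2 and 251 CPM in wild type, 289 and 286 CPM in the Ino80ko line and 159.7 and 151 CPM in the Snf2hko line. It fell in the latter by 0.67 ± 0.09 (adjusted p = 4.30e-06). The change of Ezh2 in the Ino80ko line, 0.23 ± 0.09 (adjusted p = 0.045), is lost with DESeq2 (0.062) and without Ino80ko replicate 1 or 2 or wild type replicate 3 or 4 (up to 0.189). Ezh1 went the other way, at 50.8 and 47.5 CPM in wild type, 37.4 and 37.9 CPM in the Ino80ko line (-0.38 ± 0.08, adjusted p = 0.00063) and 63.8 and 63.3 CPM in the Snf2hko line (0.36 ± 0.08, adjusted p = 0.00052). For these PRC2 genes no library of one line overlapped the other line or wild type. With 2 libraries a group such separation is easily reached, and its share over all genes was not counted.

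Scml2, which lies on chromosome X, had the largest difference of any member. It was at 8.51 and 9.76 CPM in wild type, 2.04 and 1.56 CPM in the Ino80ko line and 1.39 and 1.28 CPM in the Snf2hko line. The changes were -2.34 ± 0.17 (adjusted p = 1.55e-09) and -2.78 ± 0.17 (adjusted p = 8.11e-11). Scmh1 was at 9.86 and 11.5 CPM in wild type and lower in both lines, at 5.98 and 6.65 CPM (-0.76 ± 0.15, adjusted p = 0.00051) and 7.33 and 6.12 CPM (-0.68 ± 0.15, adjusted p = 0.00082). Cbx7 fell in the Snf2hko line by 0.22 ± 0.07, a call lost without Snf2hko replicate 1 or wild type replicate 3 (adjusted p up to 0.11). Suz12, Mtf2 and Cbx2 were called in neither line in the main fit. Mtf2 is called in the Ino80ko line without the low-count filter (0.17, adjusted p = 0.046). Without wild type replicate 4, the changes in that line pass the threshold for Mtf2 (0.29) and Suz12 (0.25). Without wild type replicate 3, that of Suz12 in the Snf2hko line does (-0.21).

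Tested directly, the Snf2hko line differed from the Ino80ko line in 5 of 9 members, beside 57.4% of all genes. Jarid2 (-1.01 ± 0.06), Ezh2 (-0.90 ± 0.09) and Cbx7 (-0.36 ± 0.07) were lower in Snf2hko and Ezh1 (0.74 ± 0.08) was higher. Suz12 was lower by 0.24 ± 0.08, a call lost without Ino80ko replicate 2 or Snf2hko replicate 2. Cbx2, not among the 5, is called higher in Snf2hko with RLE factors (0.21, adjusted p = 0.038) and with DESeq2 (0.21, 0.040). It is also called with only the compared libraries (0.20, 0.012). The endoderm markers moved with the lines. Of 7 tested, 6 fell in the Ino80ko line and 7 rose in the Snf2hko line, and the list summed to 213 and 216 CPM in wild type, 107 and 118 CPM in Ino80ko and 1420 CPM in both Snf2hko libraries. Their part in the differences of the Polycomb genes was not tested, and neither was that of the Y-linked genes.

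**Figure D3:**
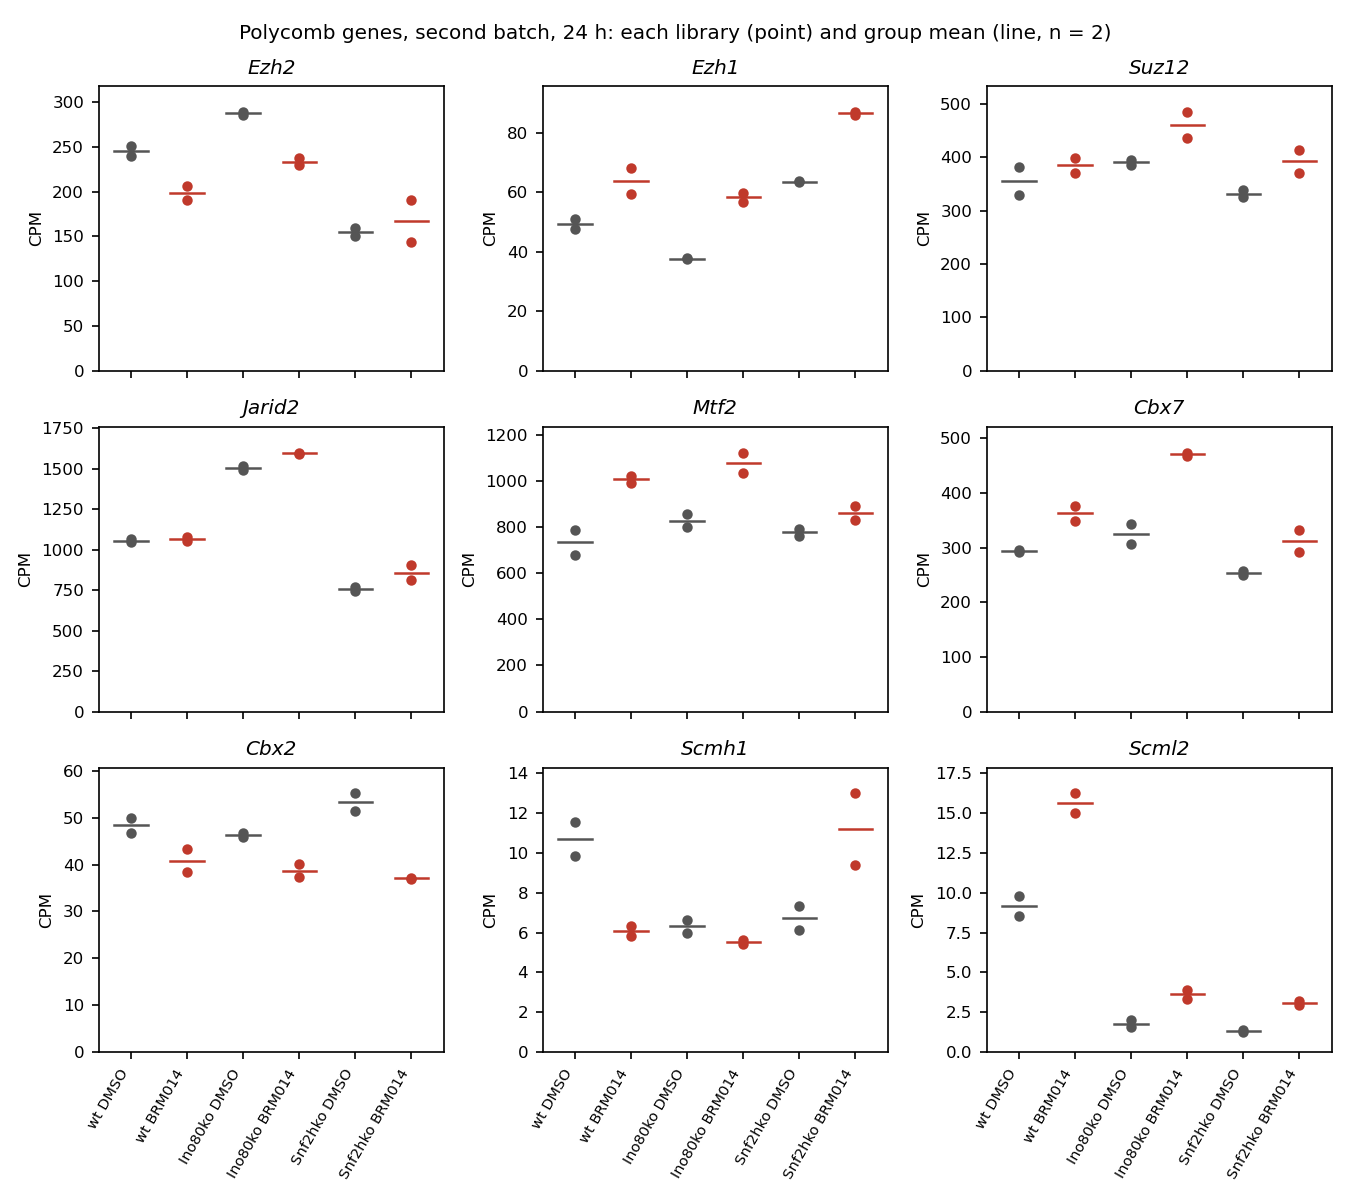
Level of each of the 9 measured Polycomb genes in the 12 libraries of the second batch at 24 h. The y axis is CPM from 0, points are libraries and lines group means (n = 2), in grey for DMSO and red for BRM014. Scml2 is below 4 CPM in all 8 libraries of the labelled lines against 8.51 to 16.2 CPM in wild type. Scmh1 is higher with BRM014 than with DMSO in Snf2hko and lower in wild type. In Ino80ko its change was not called (5.98 and 6.65 CPM in DMSO, 5.43 and 5.65 CPM in BRM014).

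BRM014 for 24 h changed 7 of 9 members in each labelled line. Ezh1, Cbx7, Scml2 and Cbx2 were called in the same direction in both lines and in wild type of the second batch. The background was 44.5% of all genes in the Ino80ko line and 56.9% in the Snf2hko line. Ezh1 rose from 37.4 and 37.9 to 59.7 and 56.8 CPM in Ino80ko (0.63 ± 0.08, adjusted p = 2.14e-06) and from 63.8 and 63.3 to 86.9 and 86.0 CPM in Snf2hko (0.45 ± 0.08, adjusted p = 5.35e-05). Scml2 rose from its low level to 3.93 and 3.32 CPM in Ino80ko (1.01 ± 0.18) and 3.20 and 2.98 CPM in Snf2hko (1.21 ± 0.19), which in both lines stayed below the wild type vehicle level. Cbx7 rose to 467 and 474 CPM in Ino80ko (0.53 ± 0.07, adjusted p = 5.48e-06) and to 331 and 292 CPM in Snf2hko (0.30 ± 0.07, adjusted p = 0.0015). Cbx2 fell to 40.1 and 37.3 CPM (-0.26 ± 0.08) and to 36.9 and 37.2 CPM (-0.52 ± 0.08). Mtf2 rose in Ino80ko by 0.38 ± 0.07. The changes of Suz12 were 0.24 ± 0.08 in Ino80ko and 0.25 ± 0.08 in Snf2hko, that of Ezh2 in Ino80ko was -0.30 ± 0.09, and that of Jarid2 in Snf2hko was 0.19 ± 0.06. In the Ino80ko line, the number called drops to 4 without DMSO replicate 1, where the changes of Cbx2 (-0.26), Ezh2 (-0.28) and Suz12 (0.23) are not called. The calls of Suz12 and Cbx2 there are also lost without DMSO replicate 2 or BRM014 replicate 2, and that of Ezh2 without BRM014 replicate 1. In the Snf2hko line the call of Suz12 is lost without DMSO replicate 2 or BRM014 replicate 1, and that of Jarid2 without DMSO replicate 1 or BRM014 replicate 1. The endoderm markers also rose in the Snf2hko line under BRM014 (5 of 7 tested, 1 fell), to a sum of 1741 and 2043 CPM, and their part in these values was not tested.

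Whether the effect of BRM014 differed from that in wild type was tested as an interaction. In the Ino80ko line no member differed (edgeR, 0 of 9, 3 at an unadjusted p under 0.05, 0 with DESeq2), beside 9.03% of all genes. Scmh1 (0.64 ± 0.23, adjusted p = 0.092) is called there with the replicate block (0.62, 0.042) and without the low-count filter (0.64, 0.036). In the Snf2hko line 3 members differed, beside 32.6% of all genes. Scmh1 went from 7.33 and 6.12 CPM in DMSO to 12.98 and 9.39 CPM in BRM014 in Snf2hko, a rise of 0.74 ± 0.15, against its fall in wild type of the same batch. The difference was 1.56 ± 0.22 (adjusted p = 2.57e-05), and no single library removed ended the call (range 1.30 to 1.76 over all settings tried). Ezh2 differed by 0.42 ± 0.13 (adjusted p = 0.017), with 191 and 144 CPM in Snf2hko under BRM014 lying on both sides of the DMSO libraries at 159.7 and 151 CPM. Without Snf2hko BRM014 replicate 1, the difference of Ezh2 is 0.20 (adjusted p = 0.143). It is also lost without Snf2hko DMSO replicate 2, wild type BRM014 replicate 3 or wild type DMSO replicate 4. Mtf2 differed by -0.30 ± 0.11 (adjusted p = 0.036), and this call is lost without Snf2hko BRM014 replicate 1, Snf2hko DMSO replicate 1 or 2, wild type BRM014 replicate 3 or wild type DMSO replicate 3 (up to 0.137).

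The balance within paralog pairs, per kilobase of exon, followed these changes. Cbx7 exceeded Cbx2 by 4.45 ± 0.62 (SD, n = 2) times in DMSO 24 h, 3.51 ± 0.08 at 6 h of BRM014 and 6.59 ± 0.23 at 24 h in the first batch. It was 5.21 ± 0.05 in DMSO 1 h and 5.54 ± 0.09 with the analog at 24 h, so the analog libraries too lay above both DMSO 24 h libraries. In the second batch the ratio was 4.00 ± 0.15 in DMSO and 5.87 ± 0.81 in BRM014. It went from 4.60 ± 0.43 to 7.99 ± 0.48 in the Ino80ko line and from 3.13 ± 0.09 to 5.52 ± 0.53 in the Snf2hko line. In all 4 settings the BRM014 libraries at 24 h lay above their vehicle libraries. The ratio of Ezh2 to Ezh1 was 5.58 ± 0.44 in wild type DMSO of the second batch, 8.49 ± 0.16 in the Ino80ko line and 2.72 ± 0.10 in the Snf2hko line. With BRM014 it was 3.48 ± 0.16, 4.47 ± 0.26 and 2.16 ± 0.41. In the first batch it moved from 5.77 ± 0.38 in DMSO 24 h to 5.004 ± 0.25 in BRM014 24 h and 3.40 ± 0.10 at 6 h of washout, and stood at 5.03 ± 0.05 with the analog at 24 h, close to BRM014. These ratios combine tested changes and were given no test of their own. Their size depends on the exonic bases listed for each gene, which are the same in every library.

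**Figure D4:**
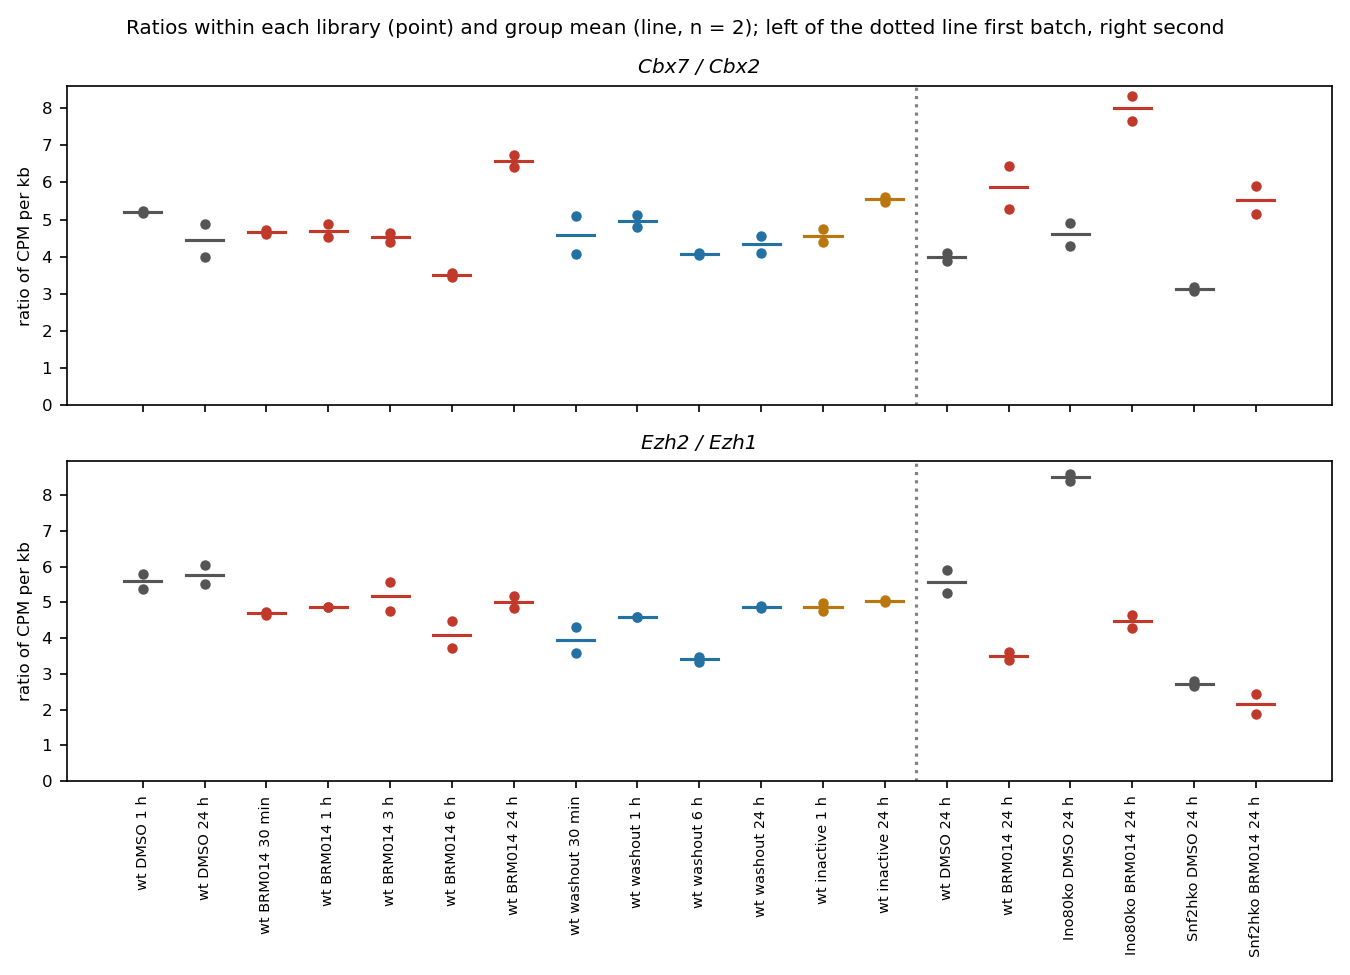
Ratio of Cbx7 to Cbx2 (top) and of Ezh2 to Ezh1 (bottom) in CPM per kilobase of exon, for each library (points) and group mean (lines, n = 2). The dotted line separates the first batch (left) from the second (right), and both y axes start at 0. The ratio of Cbx7 to Cbx2 is highest in Ino80ko with BRM014 (7.99), and that of Ezh2 to Ezh1 is highest in Ino80ko with DMSO (8.49).

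The other genes of the Polycomb system, listed from textbook knowledge, changed in both directions at 24 h of BRM014 in wild type. Not all could be measured. Listed at 0 in every library are 2 of 7 other PRC2 genes with a row and 10 of 28 other PRC1 genes. So are 4 of 11 genes of the H2A deubiquitinase and PHO complexes. Of 5 other PRC2 genes tested, 2 rose and 2 fell, with a median of -0.14. Phf19, a paralog of Mtf2, fell from 13.3 to 19.8 CPM in DMSO to 5.30 to 6.52 CPM in BRM014 (-1.50 ± 0.13, adjusted p = 6.16e-08). Aebp2, a cofactor of the JARID2-containing form of PRC2, fell by 0.32 ± 0.07, and Rbbp7, a histone-binding subunit, rose by 0.31 ± 0.06. Of 18 other PRC1 genes, 5 rose and 3 fell, with a median of 0.01. Bmi1, a PCGF subunit of canonical PRC1, rose from 12.8 to 20.1 CPM to 57.0 to 58.9 CPM (1.86 ± 0.10, adjusted p = 2.20e-10). Bcor, a subunit of the variant complex PRC1.1, fell by 1.04 ± 0.08, and Ring1, a ubiquitin ligase subunit, rose by 0.46 ± 0.13. Of 7 genes of the H2A deubiquitinase and PHO complexes, 2 rose (Mbd6 0.78 ± 0.15 and Foxk1 0.41 ± 0.08) and 1 fell (Foxk2 -0.16 ± 0.06). Of the 3 genes of the H3K27 demethylase family, Kdm6a rose by 0.27 ± 0.07. Over these lists 16 genes were called of 33 tested, close to the background share, and Bmi1 and Phf19 had the largest changes among them.

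In the labelled lines the leading genes of the same lists were in part those named above. In Ino80ko, Bcor and Mbd6 moved as with BRM014 in wild type, and Bmi1 and Kdm6a moved the other way. In the Ino80ko line Bcor fell by 1.32 ± 0.08, Bmi1 by 0.56 ± 0.10 and Pcgf6, of the variant complex PRC1.6, by 0.55 ± 0.07. The demethylase gene Kdm6b rose there by 1.45 ± 0.12, Kdm6a fell by 0.49 ± 0.06 and Mbd6 rose by 0.97 ± 0.15. In the Snf2hko line the CBX paralog Cbx8 rose by 1.95 ± 0.19, Phc1, a Polyhomeotic subunit of PRC1, fell by 1.38 ± 0.08, and 4 of 5 other PRC2 genes fell, led by Rbbp4 (-0.64 ± 0.07), beside 27.7% of all genes lower. Asxl3 and Asxl1, cofactors of the H2A deubiquitinase, fell by 0.99 ± 0.31 and 0.74 ± 0.06. There Cbx8 rose while Cbx7 fell. The Y-linked Uty, of the demethylase family, fell by 6.75 ± 0.16 in that line.

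Genes that Polycomb complexes classically hold silent in embryonic stem cells give a readout beside the machinery. Of 60 textbook targets, 28 passed the low-count filter in the pooled 24 h fit, and this filter favours targets that are high in a group, so the counts describe only those. In that fit 11 rose and 4 fell, with a median of 0.49, beside 24.8% of all genes higher and 24.8% lower. Irx3 and Irx5 of the Iroquois family rose by 2.05 ± 0.26 and 2.09 ± 0.32. Hand1, a heart and trophoblast factor, had few counts in DMSO (0.227 to 0.313 CPM) and at 1.08 to 3.45 CPM in BRM014, so it is given by its levels only. With the analog at 24 h, 2 of 35 tested targets rose and 2 fell, beside 18.4% of all genes called. Under DMSO, 4 of 43 rose and 15 fell in the Ino80ko line (median -0.72), beside 22.1% of all genes higher and 22.9% lower. In the Snf2hko line 22 rose and 3 fell (median 0.89), beside 28.9% and 27.7%. The 35 and 43 targets passed the filter in the fit of their own batch, so the same limit applies to them. In the second batch a target could pass through a single line in which it is high. These counts and medians therefore show no direction for the list as a whole. Of the 60 targets, 4 (Gata4, Gata6, Sox17 and Foxa2) are also on the endoderm list, whose sum differed between the lines as given above, and no test links the targets to the levels of the Polycomb genes.

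Over the 13 group means of the first batch, 3 members varied most, Scmh1 over 1.27, Scml2 over 1.13 and Ezh2 over 0.81 on the log2 scale. Of 8126 other expressed genes, those most alike Scmh1 by Pearson correlation were St6gal1 (r = 0.94), Camkv (0.93) and Sms (0.93). For Scml2 they were Spire1 (0.94), Chd1 (0.94) and Atp1b3 (0.93), and for Ezh2 Mios (0.93), Lin28b (0.92) and Rmi1 (0.91). These correlations are a description over 13 points from the same libraries, and with so many candidates high values occur readily.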

How the data were processed

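Total RNA libraries (TruSeq stranded) of 38 samples were deposited as 1 table of counts per gene. The authors' counts are not normalized, and the submitters' processing notes name bcl2fastq 2.17, STAR and GRCm38 (mm10). How reads were assigned to genes, and with which annotation and strand setting, is not given in the sources used here. All 38 columns matched a sample by title. The members and gene lists were chosen with earlier results of these data known.

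Genes were kept by filterByExpr (count of at least 10, total of at least 15), scaled by TMM and tested with the robust quasi-likelihood method of edgeR 4.0.16 (R 4.3.3). P-values were adjusted over all genes tested (Benjamini-Hochberg). The 24 h effect in wild type used 8 libraries with batch as a term (11787 genes). The batch difference added an interaction to that fit, and the other comparisons, of 28 in all, used 1 fit per batch (12517 and 13130 genes), so groups of 2 share an estimate of the spread. Scripts were tested on simulated counts. Named genes were all members, up to 3 called genes per Polycomb list with the largest change in the 24 h and line comparisons, up to 4 called targets, and the 3 genes most alike each of the 3 most variable members. Some genes this rule names are not reported here. Gene coordinates are GENCODE's for GRCm38 and promoters RefSeq's for GRCm38.p6, with 9 of 10 members matched. Alternatives were RLE factors, no filter, DESeq2, a replicate block, only the compared libraries, each vehicle alone and leaving out each library.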

Additional observations from a re-analysis of the deposited data

Results flagged for a closer look

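The effect of BRM014 on Polycomb genes differed between settings in 4 results, each by a test of the difference itself. The 24 h effect on Ezh2 differed by -0.46 between the second and the first batch. The effect in the Snf2hko line minus that in wild type was 0.42 for Ezh2, -0.30 for Mtf2 and 1.56 for Scmh1. Both calls of Ezh2 and that of Mtf2 are lost when certain single libraries are left out, as given above. That of Scmh1 is not. No library stood apart from the others of its group by Dixon's criterion in the 18 combinations of a member with a wild type 24 h group of 4. These groups mix libraries of both batches, and a shift between batches widens their range. The criterion could therefore hardly single out a library, and nothing is concluded from it.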

How the results depend on the processing

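No member's direction reversed where it was called, under any alternative run. The number of members called changed by over 1.5 times in these cases. For the batch difference at 24 h it went from 1 to 2 without the low-count filter and with DESeq2, as Jarid2 joined. At 3 h of BRM014 it went from 2 to 1 without the filter and with DESeq2, and to 0 with only the compared libraries or with DMSO 1 h alone as vehicle. For 30 min of washout it went from 0 to 2 without the filter, and for the Ino80ko interaction from 0 to 1 (Scmh1). With only the compared libraries, it went from 5 to 8 between 24 h and 6 h of BRM014, from 1 to 0 between vehicles, from 3 to 1 for the analog at 24 h and from 2 to 1 for 24 h of washout against DMSO. Leaving out 1 library gave 0 to 2 for the batch difference, 0 to 2 at 3 h, 0 to 1 between vehicles, 1 to 3 for the analog at 24 h, 0 to 2 for 30 min of washout, 1 to 2 for 24 h of washout against DMSO, 4 to 6 for BRM014 in Ino80ko and 1 to 4 for the Snf2hko interaction. Where this leaves 1 library in a group, it is assumed to vary like the other groups. The cause was not tested. The pooled 24 h count stayed at 5 to 7.

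Replicate numbers were not used to pair the samples in the main fits. Same-numbered libraries deviated together (r over 0.1) in 26 of 78 pairs of groups in the first batch and 4 of 15 in the second. The correlations ran from -0.45 to 0.59 and from -0.38 to 0.45, so some groups shared deviations. The limit of 0.1 has no reference, so the count cannot decide whether the numbers pair samples. A replicate block gave 7 members for the pooled 24 h effect, 2 for the batch difference, 1 for 30 min of washout and 1 for the Ino80ko interaction, and moved no other count. Wild type and the labelled lines share no replicate number under DMSO, so their comparison was not blocked. Scmh1 and Scml2 have the fewest counts (110 to 489 and 57 to 633 per library), which limits their precision.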
